A study of Mus musculus with 8 samples.

Results

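Otoconia are the calcium carbonate crystals that lie on the sensory epithelia of the utricle and saccule and let them sense gravity and linear acceleration. The expression of 9 genes, most of them tied to these crystals or to other acellular structures of the vestibular organs, was followed here. They were Oc90, Otol1, Otop1, Nox3, Noxo1, Cyba, Sparcl1, Vmo1 and Zpld1, taken by symbol as 9 of the 47517 gene symbols in each count file. The list was drawn up with earlier results of these data known. All 9 were detected in every library and passed the filter on low counts, as did 21392 symbols in all.

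RNA came from the whole inner ear at postnatal day 14, per the labels, while the title of the study names the cochlea. The mutant group (4 libraries) was heterozygous for a frameshift that alters thyroid hormone receptor α1 (TRα1), an isoform made from Thra, and the wild-type group (4 libraries) was made up of littermates. Neither group was treated, and the labels give no strain, sex or cell type to which the allele was limited. The labels do not say whether a library is 1 animal, 1 ear or a pool. A p-value therefore reflects how far the libraries spread, part of which may be technical.

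An otoconium forms around a protein matrix that is secreted during late embryonic and early postnatal life and then mineralised. Otoconin-90 (Oc90), a secreted protein with phospholipase A2-like domains, is the main soluble matrix protein in the mouse, and otolin (Otol1) is a collagen-like scaffold protein. Sparcl1 encodes a SPARC-like extracellular matrix protein that is also found in otoconia and that brain astrocytes and blood vessels make in large amounts. Otopetrin 1 (Otop1) is a proton channel. Nox3 is the catalytic subunit of an NADPH oxidase, a membrane enzyme that makes superoxide, Noxo1 is its cytosolic organiser, and Cyba encodes p22phox, the membrane partner that phagocyte oxidases share. Mice that lack Otop1, Nox3, Noxo1 or Cyba function are known for absent otoconia and poor balance. Zpld1 encodes cupulin, a zona pellucida domain protein named for the cupula of the semicircular canals, and Vmo1 encodes a secreted protein known in the mouse ear from Reissner's membrane, the roof of the cochlear duct.

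All 9 genes are protein-coding in GENCODE M21, an annotation of the mouse assembly GRCm38 (mm10). Nox3 lies at chr17:3635240-3696261 on the minus strand with 13 merged exons, Otol1 at chr3:70007613-70028708 on the plus strand with 5, and Zpld1 at chr16:55225175-55297986 on the minus strand with 13. Oc90 lies at chr15:65876053-65912397, minus strand, and Otop1 at chr5:38275972-38304217, plus strand. Noxo1 lies at chr17:24696234-24700529, plus strand, and Cyba at chr8:122424776-122432930, minus strand. Sparcl1 lies at chr5:104079111-104113733, minus strand, and Vmo1 at chr11:70513516-70514616, minus strand.

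Nox3, Zpld1 and Otol1 are the members whose levels varied most nearly together across libraries (below). The 250 bases before the start of each are shown for that reason, 5′ to 3′ on the gene's strand, from RefSeq on GRCm38.p6. The windows are chr17:3696262-3696511 (minus strand) for Nox3, chr16:55283238-55283487 (minus strand) for Zpld1 and chr3:70007363-70007612 (plus strand) for Otol1. The RefSeq start of Zpld1 lies inside the GENCODE gene.
Nox3: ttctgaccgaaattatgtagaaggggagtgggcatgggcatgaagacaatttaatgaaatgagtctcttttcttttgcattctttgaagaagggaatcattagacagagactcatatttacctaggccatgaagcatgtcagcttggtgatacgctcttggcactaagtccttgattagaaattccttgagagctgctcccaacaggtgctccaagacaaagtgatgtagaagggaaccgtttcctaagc
Zpld1: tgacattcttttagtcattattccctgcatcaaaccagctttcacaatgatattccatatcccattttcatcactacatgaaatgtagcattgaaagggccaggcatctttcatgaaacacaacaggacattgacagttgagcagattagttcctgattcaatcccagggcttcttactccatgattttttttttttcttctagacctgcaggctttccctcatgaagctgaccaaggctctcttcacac
Otol1: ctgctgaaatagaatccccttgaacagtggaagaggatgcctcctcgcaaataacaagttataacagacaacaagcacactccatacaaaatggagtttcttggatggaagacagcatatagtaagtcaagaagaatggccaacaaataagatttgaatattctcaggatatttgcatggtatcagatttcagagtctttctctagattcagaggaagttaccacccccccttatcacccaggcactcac
RefSeq windows were found for 7 of the 9 members, and Oc90 and Sparcl1 were not in the table. The core thyroid hormone receptor half-site, AGGTCA, was searched on both strands, and a match would have been printed in capitals. It was in 0 of these 7 windows, whereas 14.0% of 32851 windows of the same length over the table held it. A direct repeat of this half-site with a 4-base spacer was likewise in 0 of the 7, against 0.0152% of all windows. These letters are merely not in these windows. The GC content of the 3 printed windows was 42.8% for Nox3, 40.4% for Zpld1 and 41.2% for Otol1, below the median of 52.4% over all windows. That of Vmo1, at 47.6%, was below it as well, while Cyba had 60.0%, Otop1 70.0% and Noxo1 80.0%.

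Mutant libraries held 19662433 to 23064578 counts and wild-type libraries 18930841 to 22028397, and 3 counts in a library corresponded to between 0.130 and 0.158 CPM, the count scaled to the size of the library. Thra, whose transcript a frameshift need not remove, had 137, 113, 126 and 132 CPM in mutant replicates 1 to 4, against 114, 114, 102 and 98.4 CPM in wild-type replicates 1 to 4. These counts cannot check the labels. No library pair agreed within sampling noise (chi-square over its degrees of freedom of at least 17.3). Summed over 8 hair cell marker genes, the level was 287 to 369 CPM in mutant and 283 to 351 CPM in wild-type libraries, and all 8 were detected. Most of this sum was Myo6 and Myo7a, and Myo6 had 137 to 156 CPM in mutant and 122 to 151 CPM in wild-type libraries. Some of the others varied more. Otof had 27.2 to 62.3 CPM in mutant and 30.8 to 54.9 CPM in wild-type libraries, and Espn 8.52 to 19.5 and 9.29 to 17.9 CPM. The sum therefore does not show that hair cell content was even. Some marker lists of tissue outside the sensory epithelia varied more and others did not. The 9 neutrophil genes summed to 432 to 1720 CPM in mutant and 418 to 2062 CPM in wild-type libraries. The 7 macrophage genes summed to 269 to 287 CPM in mutant and 250 to 303 CPM in wild-type libraries. The 5 choroid plexus genes summed to 2101 CPM in mutant replicate 4 and to between 36.1 and 68.5 CPM in the other 7 libraries, nearly all of it Ttr, at 2021 CPM. Sample titles carry 1 number (replicates 1 and 4 of either genotype) or 2 numbers (replicates 2 and 3), whose meaning is not explained. Members whose difference had opposite signs within these title forms are given with both values.

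No member passed the test between the genotypes. With edgeR's quasi-likelihood test 0 of the 9 had an adjusted p under 0.05, where 0.0421% of all 21392 genes did (9 genes, 1 higher and 8 lower in mutant ears). At an unadjusted p under 0.05 the members called were again 0 of 9, beside 5.30% of all genes. DESeq2 called 0 of the 9 members and 0.318% of its 21362 genes, and limma-voom 0 of the 9 and 0.0748% of all genes. Libraries of the 2 genotypes overlapped in every member, whereas 2.69% of all genes had no overlap. The fold change was positive in 6 members and negative in 3, with a median log2 fold change (mutant minus wild-type) of 0.02, beside -0.01 over all genes tested. What differed widely was the level of some members from library to library within a genotype. In these bulk samples, fewer cells of a type and less RNA per cell cannot be told apart.

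**Figure D1:**
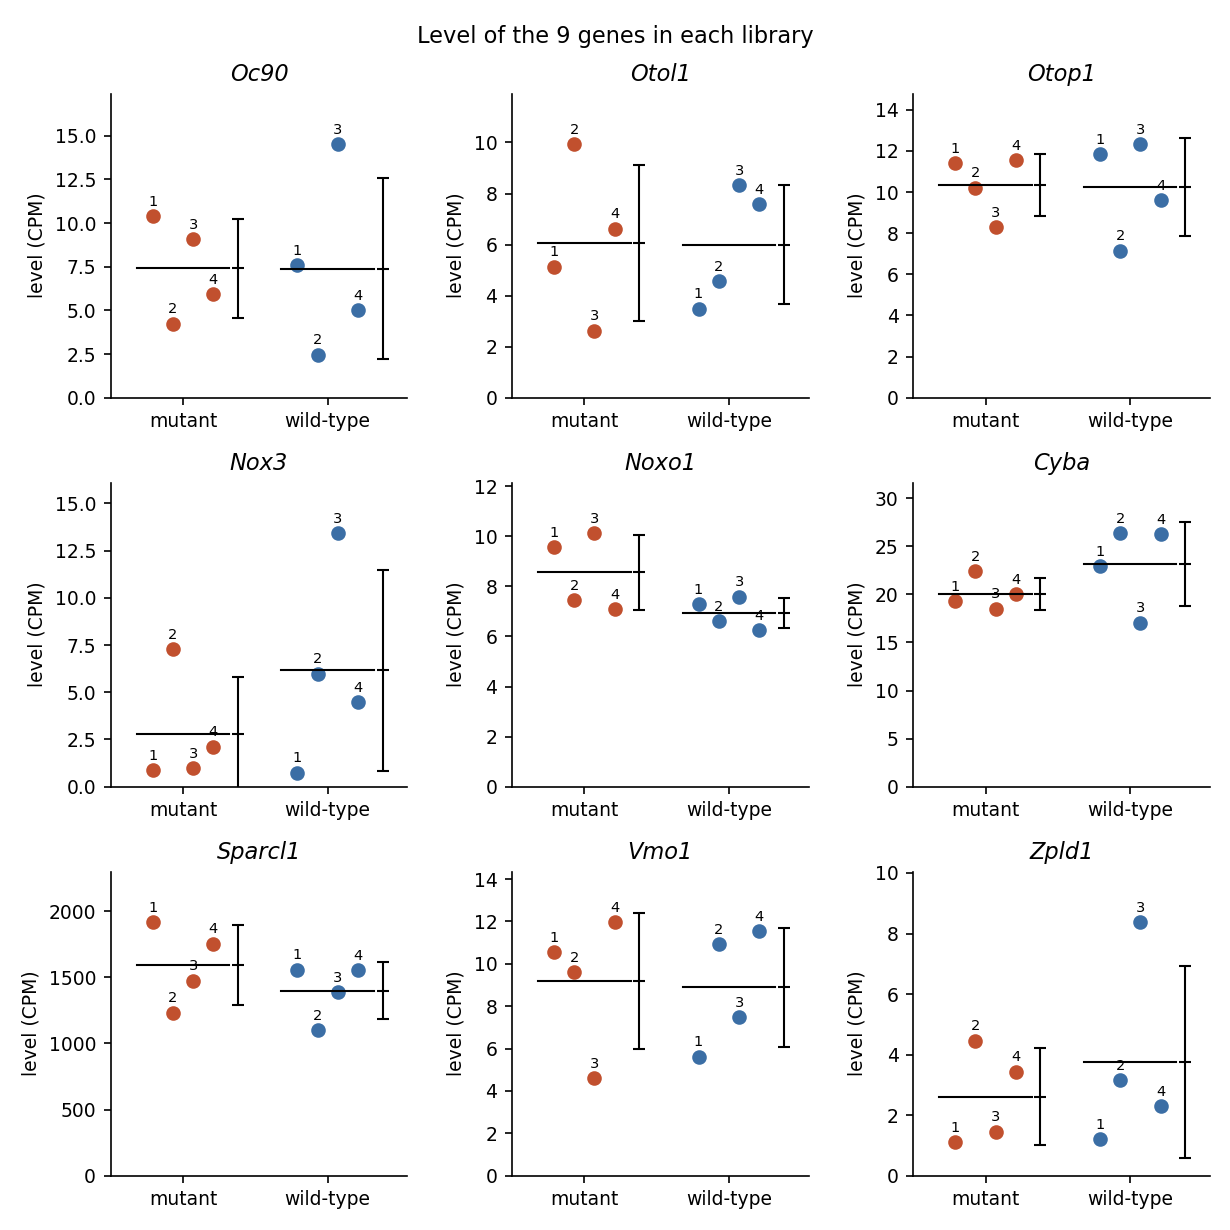
Level of each gene (CPM, linear axis from 0) in the 4 mutant and 4 wild-type libraries, with replicate numbers over the points, the mean as a line and the SD as a bar; the lower end of the bar of Nox3 in mutant libraries falls below the axis. Nox3 runs from 0.743 to 13.4 CPM and Zpld1 from 1.10 to 8.37 CPM, while Noxo1 and Cyba stay within narrow bands, and the genotypes overlap in every panel.

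Among the matrix genes, Oc90 had 10.4, 4.23, 9.06 and 5.93 CPM in mutant replicates 1 to 4, against 7.57, 2.47, 14.5 and 5.01 CPM in wild-type replicates 1 to 4. Both its lowest and its highest library were wild-type, and the mutant libraries all lay between them. Mean levels were 7.41 ± 2.83 CPM in mutant and 7.39 ± 5.18 CPM in wild-type libraries (SD, n = 4 each), and the log2 fold change was 0.00 with a 95% interval of -1.17 to 1.18. The interval is wide, so a difference of up to about this size in either direction was not excluded at this spread.

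Otol1, the scaffold gene, had 5.14, 9.93, 2.62 and 6.62 CPM in mutant replicates 1 to 4, against 3.48, 4.57, 8.32 and 7.59 CPM in wild-type replicates 1 to 4. Mutant libraries held both its highest and its lowest value. The means were 6.08 ± 3.06 CPM in mutant and 5.99 ± 2.33 CPM in wild-type libraries (SD, n = 4 each), and the log2 fold change was 0.02 (95% interval -0.93 to 0.97). Between libraries of 1-number titles the difference on the log2 scale was 0.18, and between those of 2-number titles it was -0.26.

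Sparcl1, the most abundant member, had 1918, 1232, 1475 and 1755 CPM in mutant replicates 1 to 4, against 1558, 1101, 1386 and 1554 CPM in wild-type replicates 1 to 4. In each genotype replicate 2 was lowest. Its mean was 1595 ± 303 CPM in mutant and 1399.9 ± 215 CPM in wild-type libraries (SD, n = 4 each), and the log2 fold change was 0.19 (95% interval -0.20 to 0.58, edgeR adjusted p = 1.0). The 7 endothelial markers summed to 368, 261, 345 and 398 CPM in mutant replicates 1 to 4, against 330, 229, 299 and 292 CPM in wild-type replicates 1 to 4. Here too replicate 2 was lowest in each genotype. All 7 of these genes were detected and 0 were called, and their part in the level of Sparcl1 was not tested. The 5 astrocyte markers summed to 3041 to 3786 CPM in mutant and 2878 to 3648 CPM in wild-type libraries. Most of this was S100b, at 2730 to 3345 CPM in mutant and 2601 to 3336 CPM in wild-type libraries. Gfap had 165 to 215 CPM in mutant and 105 to 239 CPM in wild-type libraries. The sum therefore says little about the other markers. The antisense gene Gm26703 overlaps Sparcl1 on the other strand and was counted at 53.7 to 96.5 CPM. Its log2 CPM had r = 0.987 with that of Sparcl1 over the 8 libraries. No source used here says whether counting used strand, so reads of the pair cannot be told apart.

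Otop1, the proton channel gene, had 11.4, 10.2, 8.29 and 11.5 CPM in mutant replicates 1 to 4, against 11.8, 7.14, 12.3 and 9.61 CPM in wild-type replicates 1 to 4. Its libraries lay close together, with the wild-type values spanning those of the mutant. Means of 10.4 ± 1.51 CPM in mutant and 10.2 ± 2.38 CPM in wild-type libraries (SD, n = 4 each) gave a log2 fold change of 0.02 (95% interval -0.42 to 0.45). Among libraries of 1-number titles the difference was 0.10, and among those of 2-number titles it was -0.03.

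Of the oxidase genes, 1 varied widely and 2 were steady. Nox3, the catalytic subunit, was counted 20, 158, 20 and 40 times in mutant replicates 1 to 4, against 16, 114, 258 and 97 times in wild-type replicates 1 to 4. These counts correspond to 0.878, 7.27, 0.969 and 2.12 CPM in mutant libraries, against 0.743, 5.99, 13.4 and 4.46 CPM in wild-type libraries. In mutant ears 1 library of 4 was high, and in wild-type ears 1 of 4 was as low as the low mutant libraries. The means were 2.81 ± 3.02 CPM in mutant and 6.15 ± 5.32 CPM in wild-type libraries (SD, n = 4 each), and the log2 fold change was -1.13 (95% interval -3.32 to 1.07, edgeR adjusted p = 1.0). This was the largest difference among the 9 genes, and it was smaller than the spread between replicates. It was -2.22 without mutant replicate 2 and -0.41 without wild-type replicate 3, with neither value past the threshold.

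Noxo1, the organiser, had 9.57, 7.45, 10.1 and 7.09 CPM in mutant replicates 1 to 4, against 7.29, 6.62, 7.59 and 6.26 CPM in wild-type replicates 1 to 4. Mutant replicates 1 and 3 were above every wild-type library, and the other 2 lay within the wild-type range. Mean levels were 8.56 ± 1.51 CPM in mutant and 6.94 ± 0.613 CPM in wild-type libraries (SD, n = 4 each), and the log2 fold change was 0.30 (95% interval -0.05 to 0.65). Its unadjusted edgeR p of 0.0805 was the smallest among the members, and the adjusted p was 0.925. Tbl3 overlaps it on the other strand and was counted at 19.0 to 25.5 CPM.

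Cyba, the p22phox gene, had 19.3, 22.4, 18.5 and 20.01 CPM in mutant replicates 1 to 4, against 22.9, 26.4, 17.1 and 26.3 CPM in wild-type replicates 1 to 4. A wild-type library was lowest and the other 3 lay above every mutant library. Its means were 20.05 ± 1.68 CPM in mutant and 23.2 ± 4.36 CPM in wild-type libraries (SD, n = 4 each), and the log2 fold change was -0.21 (95% interval -0.53 to 0.12, edgeR adjusted p = 0.972). Since Cyba also serves the phagocyte oxidase, leukocyte markers are given beside it. The 9 neutrophil genes, all detected, summed to 432, 1720, 511 and 975 CPM in mutant replicates 1 to 4, against 855, 2062, 418 and 1314 CPM in wild-type replicates 1 to 4. Wild-type replicate 2 was highest and wild-type replicate 3 lowest in both Cyba and this sum. The 7 macrophage genes varied little, at 269 to 287 CPM in mutant and 250 to 303 CPM in wild-type libraries. The part of these cells in the level of Cyba was not tested. Gm20388, a long gene model on the other strand that spans Cyba, was counted at 2901 to 3422 CPM, so stray reads of the pair cannot be told apart where strand was not used.

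Zpld1, the cupulin gene, had 1.10, 4.46, 1.45 and 3.44 CPM in mutant replicates 1 to 4, against 1.21, 3.15, 8.37 and 2.30 CPM in wild-type replicates 1 to 4. As for Nox3, mutant replicates 1 and 3 and wild-type replicate 1 were low and wild-type replicate 3 was highest. Means were 2.61 ± 1.61 CPM in mutant and 3.76 ± 3.18 CPM in wild-type libraries (SD, n = 4 each), and the log2 fold change was -0.52 (95% interval -2.01 to 0.97, edgeR adjusted p = 1.0). Without wild-type replicate 3 the sign turned, to 0.24. The difference was 0.22 between libraries of 1-number titles and -0.98 between those of 2-number titles.

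Vmo1 had 10.5, 9.61, 4.60 and 12.0 CPM in mutant replicates 1 to 4, against 5.62, 10.9, 7.49 and 11.5 CPM in wild-type replicates 1 to 4. In both genotypes replicate 4 was highest. The mean was 9.18 ± 3.20 CPM in mutant and 8.89 ± 2.82 CPM in wild-type libraries (SD, n = 4 each), and the log2 fold change was 0.05 (95% interval -0.69 to 0.78). Within 1-number titles the difference was 0.47, and within 2-number titles it was -0.44. Mutant replicate 4, with the highest Vmo1, was also the library with choroid plexus RNA, and without it the log2 fold change was -0.11.

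**Figure D2:**
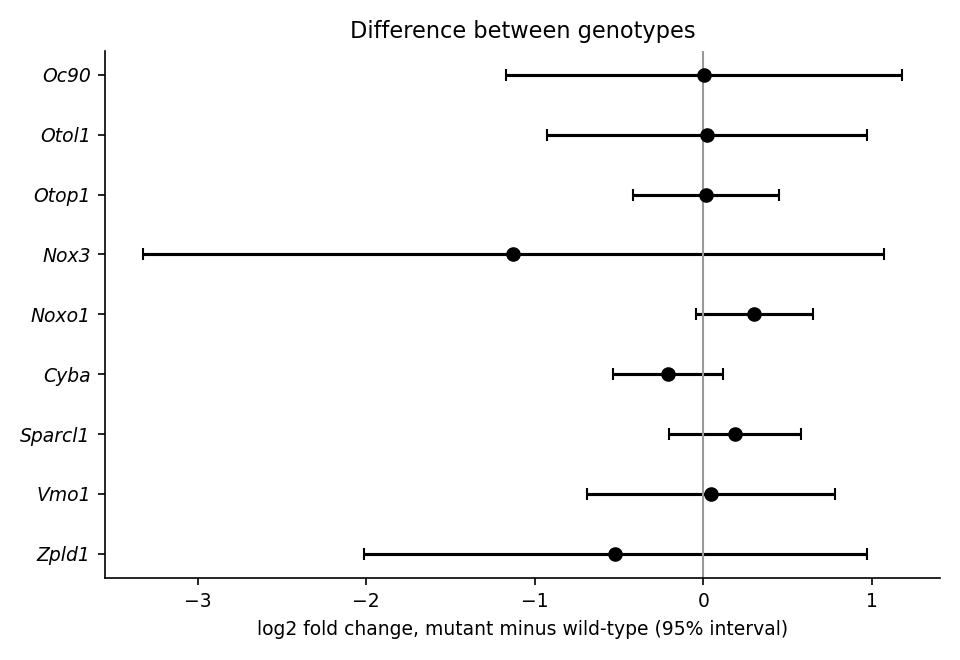
Log2 fold change of each gene, mutant minus wild-type, as a point with its 95% interval from the edgeR fit over 4 mutant and 4 wild-type libraries. All 9 intervals include 0; the widest is that of Nox3 (-3.32 to 1.07) and among the narrowest are those of Cyba (-0.53 to 0.12) and Noxo1 (-0.05 to 0.65).

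The members fell into a variable and a steady set. The within-genotype SD of log2 CPM was 1.53 for Nox3, 1.03 for Zpld1, 0.85 for Oc90, 0.70 for Otol1 and 0.55 for Vmo1, against a median of 0.21 over the 19383 genes with a mean of at least 1 CPM. Only 3.29% of these genes had a larger SD than Nox3, and 4.18% had a larger one than Zpld1. From the lowest to the highest of the 8 libraries the level of Nox3 differed 18.1-fold, that of Zpld1 7.63-fold and that of Oc90 5.88-fold, where the median gene differed 1.54-fold. Noxo1, Cyba, Sparcl1 and Otop1 had SDs of 0.20, 0.22, 0.26 and 0.30, near that median. Both sets include genes needed for otoconia in the mouse. Low counts add counting error, and Nox3 (16 to 258 counts) and Zpld1 (25 to 161) were the members with the fewest counts. Vmo1 had 95 to 251 counts and Noxo1 126 to 218, with SDs of 0.55 and 0.20. The part of counting error in these SDs was not tested.

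Levels can be compared between genes only per length, and were divided by the merged exon length. Per kilobase of exon, mutant libraries held 543 ± 103 CPM of Sparcl1, 19.3 ± 1.62 of Cyba and 13.7 ± 4.76 of Vmo1 (SD, n = 4). The next were Oc90 at 3.87 ± 1.48, Otop1 at 3.01 ± 0.438, Noxo1 at 2.84 ± 0.502 and Otol1 at 2.81 ± 1.41 CPM per kilobase, and the lowest were Nox3 at 1.57 ± 1.69 and Zpld1 at 0.969 ± 0.595. Wild-type libraries held 477 ± 73.1 CPM per kilobase of Sparcl1, 22.3 ± 4.20 of Cyba, 13.2 ± 4.19 of Vmo1, 3.87 ± 2.71 of Oc90 and 3.43 ± 2.97 of Nox3. Below these came Otop1 at 2.97 ± 0.690, Otol1 at 2.77 ± 1.08, Noxo1 at 2.30 ± 0.203 and Zpld1 at 1.39 ± 1.18. In both genotypes Sparcl1 stood apart from all others and Vmo1 lay above Oc90 without overlap. The libraries of neighbours from Oc90 downward overlapped in each genotype, as did those of Cyba and Vmo1 in wild-type ears, so the order of those neighbours is not resolved.

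**Figure D3:**
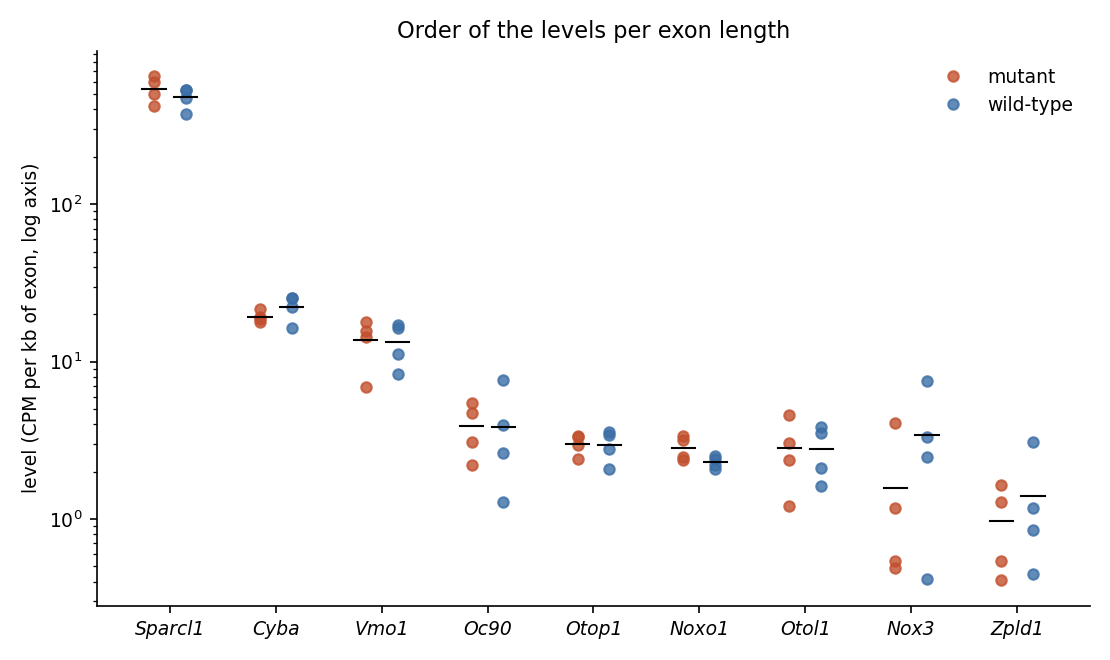
Level per kilobase of merged exon (CPM per kb, log axis) of the 9 genes in mutant and wild-type libraries, with each library as a point and the mean as a line. Sparcl1 averages 543 in mutant and 477 in wild-type libraries, the means of Cyba and Vmo1 are 19.3 and 13.7 in mutant and 22.3 and 13.2 in wild-type libraries, and from Oc90 downward genes next to each other in order of mean overlap within a genotype.

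Whether members varied together across dissections was examined over the 8 libraries in 36 pairs, with exact permutation tests over the pairings. Of the 36, 19 correlations were positive and 17 negative. A raw exact p under 0.05 was reached by 5 pairs, and 0 passed after Benjamini-Hochberg adjustment over the 36. The strongest pair was Nox3 with Zpld1, with Pearson r = 0.92 (exact p = 0.00146, adjusted 0.0527) and Spearman rho = 0.905 (exact p = 0.00456, adjusted 0.164). Without wild-type replicates 1 and 3, the libraries farthest from the median of Nox3, r was 0.848 (exact p = 0.0389, n = 6). With each genotype centred on its own mean, r was 0.929 (permutation p = 0.00102, adjusted 0.0366). Centred values sum to 0 within a genotype and cannot be exchanged freely between libraries, so this p is approximate and may be too small. Of 19382 genes, Nox3 ranked 14th by likeness to Zpld1, and Zpld1 ranked 40th by likeness to Nox3.

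Otol1 correlated with Nox3 (r = 0.751, exact p = 0.0367; rho = 0.738, exact p = 0.0458) and with Zpld1 (r = 0.723, exact p = 0.0441; rho = 0.714, exact p = 0.0576), and both had an adjusted p of 0.357. Without mutant replicates 2 and 3 these were r = 0.683 (exact p = 0.140) and r = 0.701 (exact p = 0.115) over n = 6, close to the values over 8 libraries but with p above 0.05. Oc90, a matrix gene like Otol1, had an r of -0.11 with Otol1, of -0.241 with Nox3 (exact p = 0.562) and of -0.058 with Zpld1. Without wild-type replicates 2 and 3 these were -0.801 (exact p = 0.0653), -0.930 (exact p = 0.0125) and -0.887 (exact p = 0.0319) over n = 6. Each had an adjusted p of 0.294. Oc90 ran opposite to Cyba, with r = -0.854 (exact p = 0.00697, adjusted 0.125) and rho = -0.857 (exact p = 0.0107, adjusted 0.185). With each genotype centred, this r was -0.895 (permutation p = 0.00236, adjusted 0.0424, again approximate). Without wild-type replicates 2 and 3 it was -0.672 (exact p = 0.150, n = 6). Noxo1 and Cyba were also inversely related (r = -0.704, exact p = 0.0496, adjusted 0.357; rho = -0.833, exact p = 0.0154), and without mutant replicates 1 and 3 r was -0.795 (exact p = 0.0625, n = 6). Between the other oxidase pairs r was -0.55 for Nox3 with Noxo1 and 0.11 for Nox3 with Cyba. Without wild-type replicates 1 and 3 these were -0.832 (exact p = 0.0556) and 0.837 (exact p = 0.0528) over n = 6, so values over so few libraries moved widely with the libraries included. Each title form holds only 4 libraries, too few for a correlation within it.

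**Figure D4:**
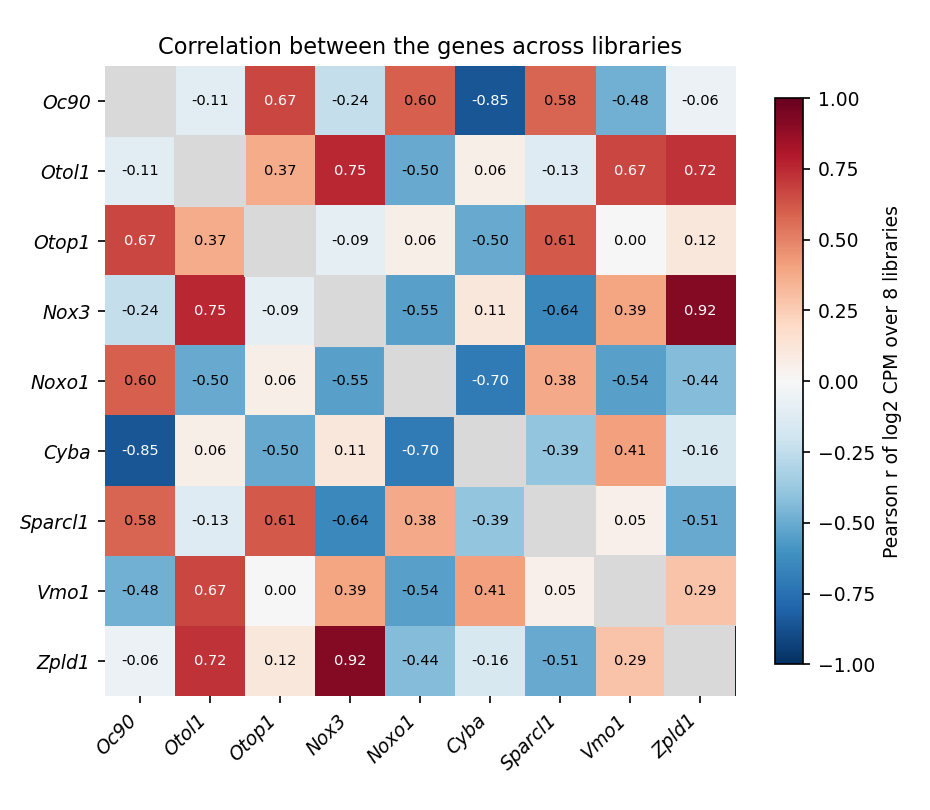
Pearson r of log2 CPM between each pair of the 9 genes over the 8 libraries, from blue (-1) to red (1), with the value in each cell. Nox3, Zpld1 and Otol1 form the reddest trio (0.92, 0.75 and 0.72), and the deepest blue cell is Oc90 with Cyba (-0.85).

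**Figure D5:**
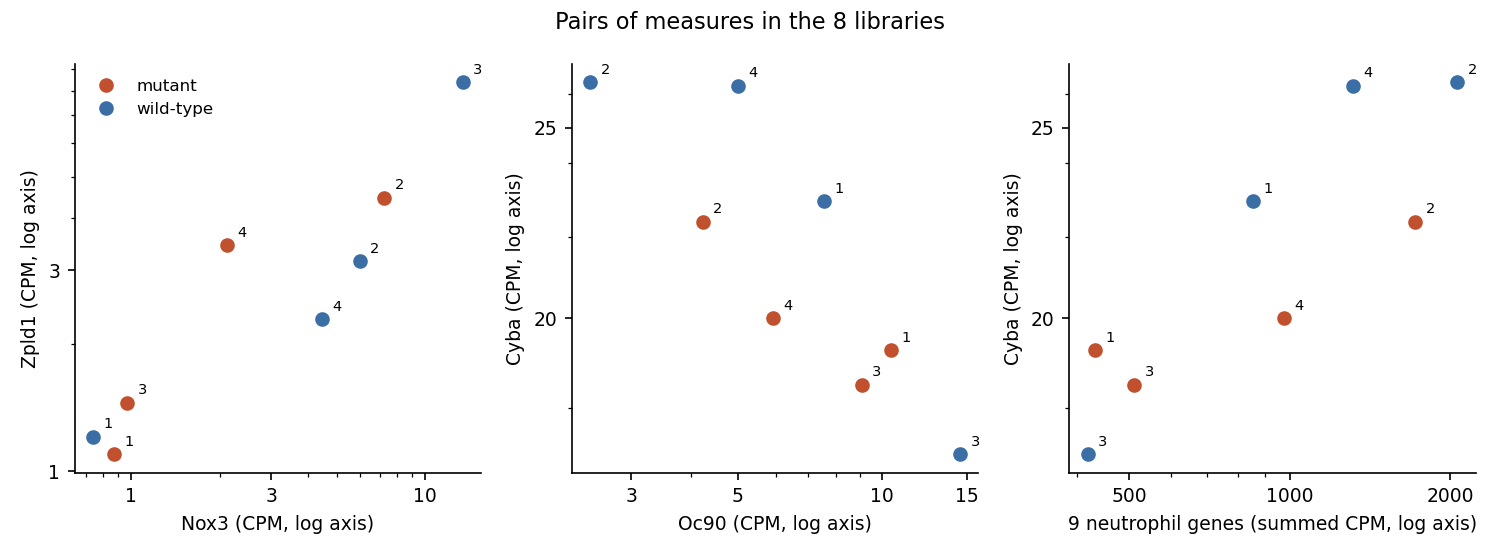
Levels in each of the 8 libraries (log axes, CPM, replicate numbers beside the points) of Zpld1 against Nox3, of Cyba against Oc90, and of Cyba against the sum of 9 neutrophil genes. Mutant and wild-type libraries overlap in each panel, though in Cyba every wild-type library except replicate 3 lies above all mutant libraries. Wild-type replicate 3 lies at an end of all 3 panels, with 13.4 CPM of Nox3, 14.5 CPM of Oc90 and 17.1 CPM of Cyba.

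For each member, the 3 genes with the highest Pearson r of log2 CPM over n = 8 libraries are named as a description. They were taken from genes with a mean of at least 1 CPM. Symbols of the form Gm or Rik, those starting with a digit and those with a dash before a digit were left out. Nox3 was followed by Espnl (r = 0.972), Fndc7 (0.971) and Pls1 (0.959), and Zpld1 by Fut9 (0.973), Esco1 (0.957) and Tnpo3 (0.950). Oc90 was followed by Megf6 (0.986), Prss23 (0.981) and Utp11l (0.966), and Otol1 by Ttc39b (0.988), Zcchc12 (0.942) and Lrtm2 (0.937). Cyba was followed by Snx20 (0.987), Bin2 (0.986) and Tyrobp (0.982), the last encoding a signalling adaptor of myeloid cells. For Noxo1 these were Fgfr4 (0.991), Sncaip (0.977) and Sorcs2 (0.968), and for Otop1 Prrg3 (0.967), Mpzl2 (0.961) and Fam83f (0.952). For Sparcl1 they were App (0.989), Hsbp1 (0.986) and Wasf1 (0.982), and for Vmo1 Zfp367 (0.960), Lrrc46 (0.958) and Fgf12 (0.955). None of the 9 members was among the 3 closest of another.

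In the wider set of genes around the members, likewise, no gene passed the test. Of 56 genes in 4 lists, each counted once, 48 were tested and 0 were called in either direction, with 25 fold changes above and 23 below 0 and a lowest edgeR adjusted p of 0.924. Libraries of the genotypes overlapped in all 48, whose median log2 fold change was 0.02.

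Of 17 other genes of otoconia and of the gels over sensory epithelia, 16 were tested, 4 positive and 12 negative, with a median of -0.06. Slc26a4, the anion exchanger pendrin, was the only one with an unadjusted p under 0.05, at 51.2 ± 11.5 CPM in mutant and 67.0 ± 6.26 CPM in wild-type libraries (log2 fold change -0.39, SE 0.15, edgeR adjusted p = 0.924). Car2, a carbonic anhydrase, had 258 ± 85.2 CPM in mutant and 380 ± 116 CPM in wild-type libraries (-0.56, SE 0.29, edgeR adjusted p = 0.929). Spp1, which encodes the matrix protein osteopontin, had 1658 ± 303 CPM in mutant and 2182 ± 603 CPM in wild-type libraries (-0.40, SE 0.21, edgeR adjusted p = 0.929). Otog, which encodes the gel protein otogelin, had 61.3, 122, 54.9 and 71.4 CPM in mutant replicates 1 to 4, against 51.4, 84.7, 130.04 and 76.4 CPM in wild-type replicates 1 to 4. As for Nox3, it was lowest in mutant replicates 1 and 3 and wild-type replicate 1, and it was singled out after its values had been seen. Foxi1, with 14 counts over the 8 libraries, was not tested.

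Among 12 other NADPH oxidase genes, 9 were tested, 4 positive and 5 negative, with a median of -0.04. Rac2, the small GTPase of the leukocyte oxidase, had 31.5 ± 13.5 CPM in mutant and 47.2 ± 16.1 CPM in wild-type libraries (log2 fold change -0.59, SE 0.36, edgeR adjusted p = 0.965). Rac1, its broadly expressed relative, had 243 ± 23.1 CPM in mutant and 226 ± 18.5 CPM in wild-type libraries (0.10, SE 0.10, edgeR adjusted p = 1.0). Ncf4, a cytosolic subunit of the phagocyte enzyme, had 7.23 ± 3.96 CPM in mutant and 9.22 ± 4.01 CPM in wild-type libraries (-0.35, SE 0.43, edgeR adjusted p = 1.0). Noxa1, which encodes an activator of such oxidases, had 5 counts over all libraries and Duox2 had 24, and neither was tested. Cybc1 has no row under that symbol.

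Of 16 relatives of the members, 12 were tested, 11 positive and 1 negative, with a median of 0.15. Smoc1 and Fstl1 encode SPARC family proteins. Smoc1 had 56.4 ± 6.37 CPM in mutant and 49.2 ± 1.58 CPM in wild-type libraries (log2 fold change 0.20, SE 0.09, edgeR adjusted p = 0.924). Fstl1 had 586 ± 141 CPM in mutant and 429 ± 89.4 CPM in wild-type libraries (0.45, SE 0.21, edgeR adjusted p = 0.924). C1ql2, a C1q-like gene and the negative one, had 0.325 ± 0.203 CPM in mutant and 0.667 ± 0.138 CPM in wild-type libraries (-1.01, SE 0.48, edgeR adjusted p = 0.924). The untested relatives were Otop3, Pla2g1b, Pla2g2e and Pla2g10, with 3, 33, 34 and 52 counts over all libraries.

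All 12 genes of vestibular development and of the striola, the central zone of the utricle and saccule, were tested, 7 positive and 5 negative, with a median of 0.11. Dlx5, a homeobox gene of the dorsal otocyst, had 26.3 ± 7.52 CPM in mutant and 18.2 ± 4.95 CPM in wild-type libraries (log2 fold change 0.54, SE 0.26, edgeR adjusted p = 0.925). Cyp26b1, which encodes an enzyme that degrades retinoic acid, had 10.5 ± 1.74 CPM in mutant and 8.21 ± 2.15 CPM in wild-type libraries (0.36, SE 0.20, edgeR adjusted p = 0.943). Otx1, a homeobox gene needed for the horizontal canal, had 2.16 ± 0.276 CPM in mutant and 2.58 ± 0.371 CPM in wild-type libraries (-0.26, SE 0.18, edgeR adjusted p = 0.976).

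The other marker lists also overlapped between the genotypes. The 6 supporting cell genes, 5 of them tested, summed to 761 to 968 CPM in mutant and 668 to 1018 CPM in wild-type libraries. The 5 genes of dark and marginal cells, which secrete potassium into the endolymph, summed to 815 to 1040.1 CPM in mutant and 848 to 1067 CPM in wild-type libraries. The 4 genes of the cochlear roof, Vmo1 among them, summed to 36.1 to 52.8 CPM in mutant and 27.8 to 57.1 CPM in wild-type libraries. The 5 erythroid genes summed to 7649 to 18902 CPM in mutant and 12810 to 49442 CPM in wild-type libraries. In every list all genes were detected in at least 1 library, and 0 were called.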

How the data were processed

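TRIzol and a Qiagen micro-scale kit were used to extract RNA, and the 8 libraries came from a Lexogen whole-transcriptome kit with unique molecular identifiers, per the labels' protocols. The submitters' processing notes name FastQC, STAR and HTSeq, and the build mm10, with no version. No source used here gives the annotation, the strand setting or any use of the molecular identifiers. The deposited values are raw whole-number counts for each gene symbol. Of the 47517 symbols 45236 are names in GENCODE M21, and 15 are bare numbers holding at most 0.135% of a library. Count floors reflect counting error alone.

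The genotypes were compared with edgeR 4.0.16 (R 4.3.3) on the deposited counts, with TMM scaling, filterByExpr, robust quasi-likelihood F tests, genotype as the only term, and Benjamini-Hochberg adjustment over all 21392 genes tested, with a threshold of 0.05. The standard error is the log2 fold change divided by the root of F. CPM used TMM-scaled library sizes, and correlations used log2 CPM with a prior count of 2 and all 40320 pairings of 8 libraries. The fit was tested on simulated counts in which every gene had the median dispersion. That setting does not cover members as variable as Nox3. Genes named were the members, the 3 of each list with the smallest p, and the 3 most like each member with a mean of at least 1 CPM. The symbol forms given above were left out of the last group. Otog, Tecta, Nox1 and Otop2 were added after their values had been seen. Members and lists were chosen with earlier results of these data known. Alternatives were other scalings and filters, DESeq2 1.42.0, limma-voom (limma 3.58.1), title form as covariate, a replicate block, haemoglobin left out, and each library left out.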

Additional observations from a re-analysis of the deposited data

Results flagged for a closer look

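The 9 members give 18 groups of 4 libraries, and in 0 of these did 1 library lie far enough from the others to pass Dixon's 95% critical value. The largest gap was 0.806 of its group's range.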

How the results depend on the processing

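Under every alternative run, 0 members and 0 genes of the wider lists were called; the lowest adjusted p of any member was 0.308, for Noxo1 with the replicate block. Over all genes 9 were called, against 68 with DESeq2, 16 with limma-voom, 5 with title form as covariate, and 6 to 14 with 1 library left out (14 without mutant replicate 4). Neighbouring title numbers could pair the samples, and the correlations of same-numbered deviations were 0.128, 0.252, 0.187 and -0.038. Those of differently numbered libraries were not computed, so these values cannot decide whether the samples are paired. The pairing was therefore used only as an alternative. With this replicate block 29 genes were called, 17 higher and 12 lower, of which 6 were among the 9. The sign of a log2 fold change near 0 was not stable. That of Oc90 was -0.00015 with no scaling beyond total counts and -0.28 to 0.56 with 1 library left out. That of Otol1 was -0.041 with limma-voom, -0.020 with the replicate block and -0.32 to 0.27 with 1 library left out. Leaving out 1 library gave -0.12 to 0.12 for Otop1, -0.11 to 0.27 for Vmo1 and -0.91 to 0.24 for Zpld1. Nox3 (-2.22 to -0.41), Cyba, Noxo1 and Sparcl1 kept their sign under every alternative. Correlations centred within genotype gave 2 pairs past the adjusted threshold, by p-values that are only approximate. There were 0 over the 8 libraries and 0 without the 2 farthest. For these small changes and counts the cause was not tested. With 4 libraries a group and counts as low as 16, the intervals of Nox3 and Zpld1 were wide, and differences inside them were not excluded.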

Other observations

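A pair of relatives of the members had counts of 0 in some libraries and not in others, as did other listed genes with few counts. The pair was picked after its values had been seen. Nox1, a catalytic oxidase subunit like Nox3, had 160, 170, 166 and 144 counts in mutant replicates 1 to 4, against 162, 171, 153 and 0 counts in wild-type replicates 1 to 4. Otop2, a proton channel gene related to Otop1, had 21, 25, 12 and 0 counts in mutant replicates 1 to 4, against 20, 0, 0 and 0 counts in wild-type replicates 1 to 4. Neither was called, and the cause of the zeros was not tested. Tecta, which encodes α-tectorin of the gels, was also picked after its values had been seen, and had 8.21, 24.6, 4.80 and 12.5 CPM in mutant replicates 1 to 4, against 8.17, 12.8, 13.9 and 15.7 CPM in wild-type replicates 1 to 4.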
